A study of Mus musculus with 4 samples.

Results

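Synaptic vesicle and release genes were examined in hippocampal poly(A) RNA-seq of wild-type (WT) and *Lsd1* SA/SA knock-in (KI) mice. The set held 46 genes chosen by symbol for their place in the vesicle cycle, out of 26328 genes listed in at least 1 sample, and all 46 were matched to a gene and tested. LSD1 (gene *Kdm1a*) is a histone demethylase, and KI mice express it with the serine that PKCα phosphorylates replaced by alanine, in every cell. All 4 samples, 2 per genotype, came from hippocampus of male C57BL/6 mice, with no drug or training named for them. An age of 8 to 15 weeks is given for the littermates used in behaviour. Whether each sample was 1 mouse or a pool is not given, so p-values measure the spread between these samples, which may be technical. The values are RPKM, in which the reads on a gene are divided by its exon length and by the mapped reads of the sample, so that levels can be set side by side between genes and samples. The comparison asks whether RNAs of the presynaptic terminal differ when LSD1 cannot be phosphorylated at this site.

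At a nerve terminal, neurotransmitter is loaded into vesicles, which are tethered, docked and primed at the release site. Calcium entry, sensed by synaptotagmins, then lets SNARE proteins on vesicle and plasma membrane zip together and fuse the membranes, while complexins hold the SNARE complex ready. After fusion, NSF and its SNAP adaptors pull the SNAREs apart, and dynamin, amphiphysin and synaptojanin retrieve and uncoat the vesicle. Hippocampal synapses are known for strong short-term plasticity, which depends on this machinery.

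The level of the targeted gene cannot check the labels, because a base change leaves the RNA in place. *Kdm1a* was at 11.6 and 11.2 RPKM in WT and at 10.97 and 11.2 RPKM in KI, and its log2 fold change (KI against WT) was -0.04 (adjusted p = 0.872, limma). RPKM had been scaled to between 8827967 and 14949756 reads per sample, with WT replicate 2 the lowest, so 1 read on a transcript of 2 kb was worth 0.0566 RPKM there and 0.0334 RPKM in KI replicate 2. Pan-neuronal markers summed to 364 to 373 RPKM in WT and 393 to 400.0 RPKM in KI, and 2 of 4 were higher in both KI samples. In bulk tissue, fewer cells of a type and less RNA per cell cannot be told apart.

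The members *Vamp1*, *Cplx1*, *Rab39* and *Syngr1* were also assayed by qRT-PCR in the study. The stretches of mRNA copied by its primer pairs are shown because they tell which part of each transcript was assayed, while RPKM counts reads over all exons. Each product lies in coding sequence. Capitals mark the primers, the second as its reverse complement, and every product is written 5′ to 3′ on the gene's strand in GRCm38, the same build as mm10. The genomic span of the *Vamp1* product, chr6:125219051-125219628 (+), includes the intron between exons 3 and 4 of the transcript, which the 62 bases leave out. The other products each lie in 1 exon, *Cplx1* in exon 3 at chr5:108525398-108525460 (-), *Rab39* in exon 2 at chr9:53686570-53686678 (-) and *Syngr1* in exon 4 at chr15:80115916-80116038 (+). Both primers were found in 4 of 6 annotated *Vamp1* transcripts, 2 of 2 of *Cplx1*, 1 of 1 of *Rab39* and 2 of 4 of *Syngr1*.
Vamp1: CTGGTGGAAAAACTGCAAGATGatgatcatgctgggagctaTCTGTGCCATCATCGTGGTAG
Cplx1: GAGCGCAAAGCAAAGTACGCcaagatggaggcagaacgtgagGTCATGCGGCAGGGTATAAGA
Rab39: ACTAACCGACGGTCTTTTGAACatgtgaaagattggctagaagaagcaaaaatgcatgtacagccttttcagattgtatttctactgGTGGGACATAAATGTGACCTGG
Syngr1: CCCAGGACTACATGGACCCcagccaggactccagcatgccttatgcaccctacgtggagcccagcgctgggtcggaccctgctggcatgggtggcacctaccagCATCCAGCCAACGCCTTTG

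Most of the release machinery was abundant in these samples. The median member had a mean level of 56.7 RPKM over the 4 samples, against 5.85 RPKM for all 18436 genes tested, and 29 of 46 members were in the top 10% of levels. In all, 14 members were at 100 RPKM or more, led by *Snap25*, *Dnm1*, *Cplx2* and *Vamp2*, and 11 were under 10 RPKM. Behind a member's value in 1 sample stood between 13 and 31401 reads, the fewest for *Rab39*. The plot of levels by role shows that each class had an abundant member and that low paralogs accompanied most of them, such as *Cplx3* among complexins, *Syn3* among synapsins and *Sv2c* among SV2 proteins.

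**Figure D1:**
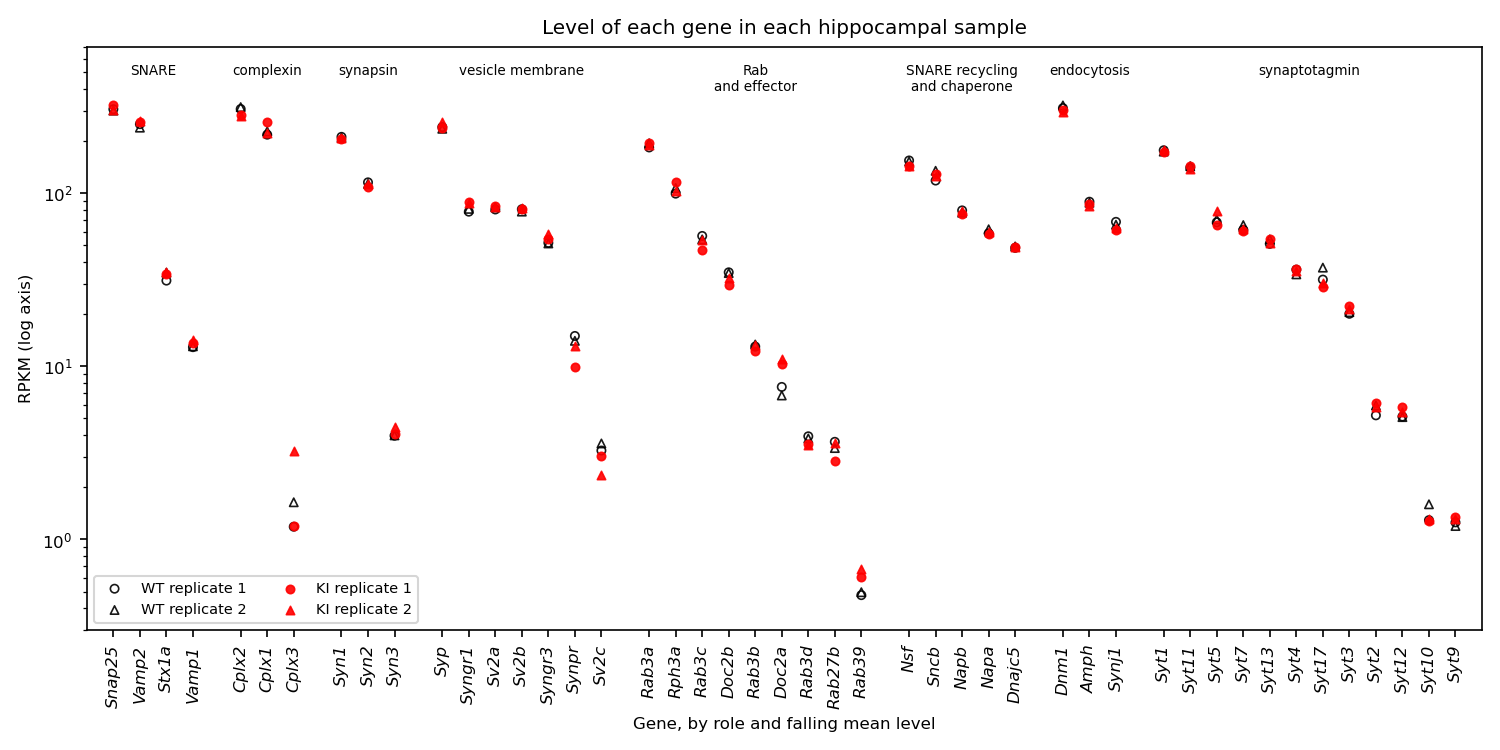
RPKM of each of the 46 genes (log axis) in the 4 samples, grouped by role and ordered by level. Open black symbols are WT, filled red symbols KI, circles replicate 1 and triangles replicate 2. Levels run from under 1 RPKM for *Rab39* to over 300 RPKM for *Snap25*, and the samples of a gene mostly lie on top of each other, with wider spreads for *Cplx3*, *Doc2a*, *Sv2c* and *Synpr*.

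None of the 46 genes passed the threshold between KI and WT. The call asked for an adjusted p under 0.1 together with 1.2-fold or more in the limma fit on log2(RPKM + 1), and 0% of all genes tested (0 of 18436) passed. The smallest adjusted p was 0.307 among the members and 0.197 over all genes. In simulated reads with the same spread set for all genes, this fit recovered 0% of 1.2-fold changes and 0% of 1.5-fold changes. It recovered 76% of 3-fold changes. The spread was a set value, not estimated from the members, so these shares need not hold for them. A lack of calls under this fit does not show that the members were unchanged. Without adjustment, 4 members had p under 0.05, beside 9.62% of all genes. *Doc2a* and *Syngr1* were higher in KI, as were 6.3% of all genes at this p, and *Cplx2* and *Doc2b* were lower, as were 3.33%. A fit added after seeing the data, limma voom on reads recovered from the RPKM steps, called 1 member, *Doc2a*, beside 1.02% of all genes. Over all genes, 0.743% were called higher in KI, the direction of *Doc2a*, and 0.277% lower. The voom fit gave 10 of 46 members an unadjusted p under 0.05, beside 11.6% of all genes. Of these, *Doc2a* and *Syngr1* were higher in KI. *Cplx2*, *Synpr*, *Sv2c*, *Rab3c*, *Doc2b*, *Nsf*, *Synj1* and *Syt17* were lower. Shares of all genes by direction are not given for this p, so no lean can be read from it. In 12 members both KI values were above both WT values, as in 24% of all genes, and in 12 both were below, as in 18.1% of all genes. The other 22 overlapped. This split moved with the scaling, to 10 above and 16 below after median-ratio scaling and to 7 above and 17 below after quantile normalization. Shares over all genes under these scalings are not given here, so no lean of the members can be read from these counts. A change of at least 1.2-fold on this scale was seen in 4 members (*Doc2a*, *Cplx3*, *Synpr* and *Sv2c*) and in 13.1% of all genes. The median log2 fold change was 0.02 over the members and 0.01 over all genes tested, and the 95% interval of a member reached 0.15 to either side of its fold change at the median.

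**Figure D2:**
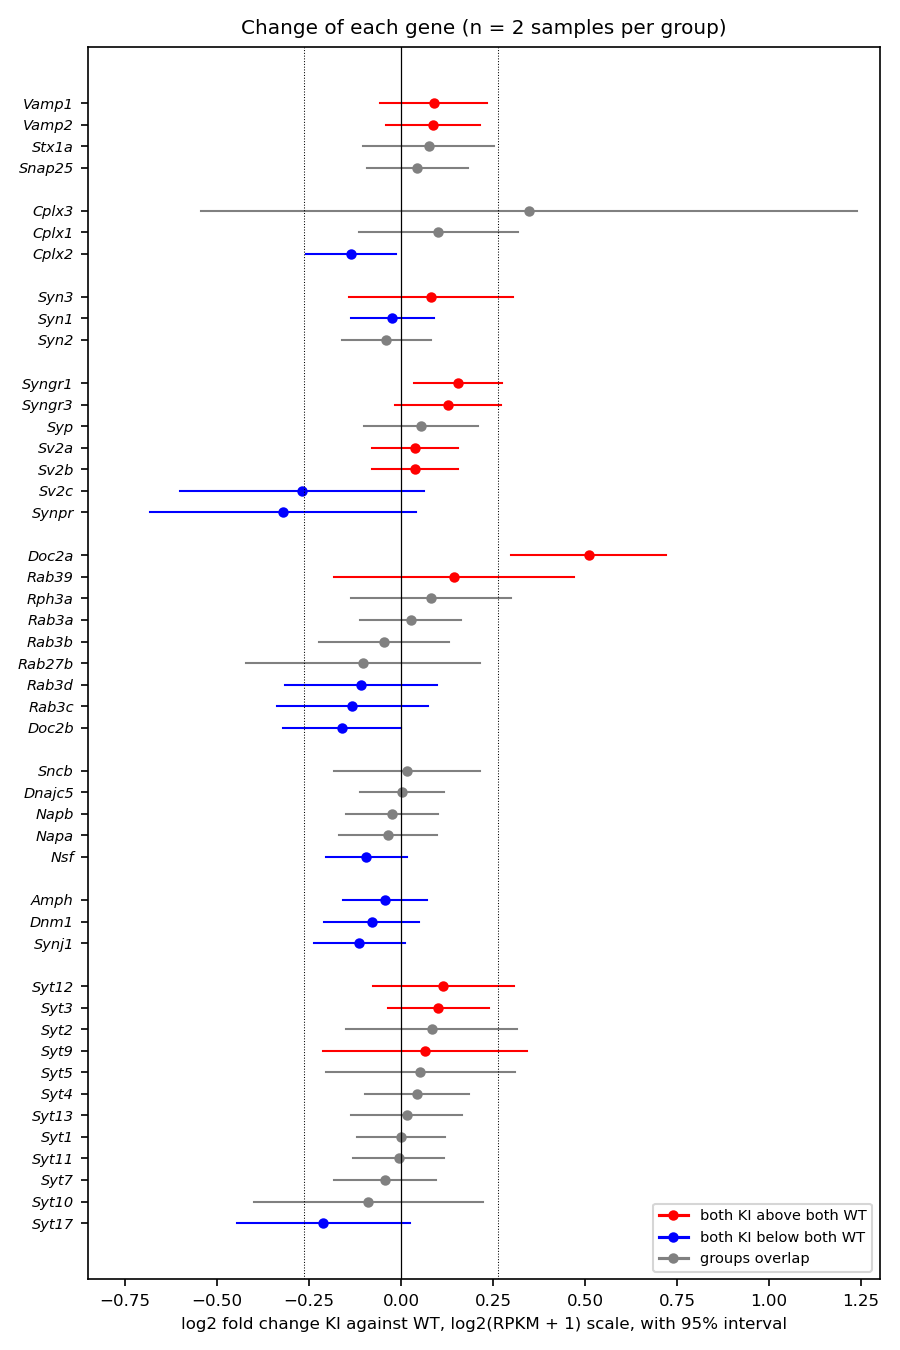
Log2 fold change of each gene, KI against WT, on the log2(RPKM + 1) scale with its 95% interval from limma (n = 2 per genotype), grouped by role in the order of the level plot. Dotted lines mark 1.2-fold. Red genes had both KI values above both WT values, blue genes both below, and grey genes overlapped. Only *Doc2a* stands clear of the upper line by its whole interval, from 0.30 to 0.72, and the widest interval is that of *Cplx3*.

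*Doc2a* had the largest fold change with groups that did not overlap. It encodes a calcium-binding C2 domain protein of the vesicle that takes part in spontaneous and asynchronous release. The gene (ENSMUSG00000052301) lies at chr7:126847416-126852705 on the plus strand. Its level was 7.61 and 6.79 RPKM in WT and 10.3 and 10.98 RPKM in KI. The reads behind these values numbered 286 and 168 for WT, and 417 and 460 for KI. Both KI samples were above both WT samples, and the exact 95% Poisson intervals of the reads, which cover counting error only, reached 8.54 RPKM at most in WT and 9.38 RPKM at least in KI. The group means were 7.20 ± 0.58 and 10.7 ± 0.45 RPKM (SD, n = 2), a ratio of 1.48. The log2 fold change was 0.51 ± 0.08 (SE; adjusted p = 0.307, limma) and lay between 0.44 and 0.58 when any 1 sample was left out. In the voom fit it was 0.55 ± 0.10 (SE; adjusted p = 0.0351). With 1 sample left out, the voom log2 fold change was 0.65 without WT replicate 1 and 0.49 without WT replicate 2. It was 0.59 without KI replicate 1 and 0.51 without KI replicate 2. Whether the call holds cannot be judged from these fits, because a genotype left with 1 sample has no spread of its own.

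Exons of *Doc2a* share 1103 of 2803 bases (39.4%) with *Ino80e*, a chromatin remodelling subunit gene on the opposite strand. The library kit named in the labels does not mark strand, so reads on the shared bases cannot be told apart. *Ino80e* itself was at 7.14 and 6.85 RPKM in WT and 8.03 and 8.42 RPKM in KI. Both KI values were higher, by a log2 fold change of 0.21 (adjusted p = 0.490, limma), and the part of this overlap in the *Doc2a* difference was not tested. In all, 13 members share exon bases with another gene, 8 of them at least 200 bases and all 8 with a gene on the opposite strand (*Doc2a*, *Doc2b*, *Rab3b*, *Syn3*, *Syp*, *Syt4*, *Syt7* and *Syt12*), and the same limit holds for their values.

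*Doc2b*, the paralog of *Doc2a* and likewise a high-affinity calcium sensor, had the opposite order. It was at 34.9 and 34.6 RPKM in WT and at 29.7 and 32.4 RPKM in KI. Here KI lay below WT in both samples, with a log2 fold change of -0.16 ± 0.06 (SE; adjusted p = 0.516, limma), which was -0.10 without KI replicate 1. *Doc2a* thus made up 17.9% and 16.4% of the summed *Doc2a* and *Doc2b* RPKM in WT and 25.9% and 25.3% in KI. The share was higher in both KI samples, by 8.44 percentage points between the means of 17.1% ± 1.04 and 25.6% ± 0.39 (SD, n = 2). An exact two-sided permutation test gave p = 0.333, the smallest that 2 against 2 samples allow, and an adjusted p of 1 over the 14 family shares compared. In this share, too, the reads on bases common to *Doc2a* and *Ino80e* are counted.

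Rab proteins are small GTPases that bring vesicles to the release site, and effectors such as rabphilin act with them. *Rab3a*, the main vesicle Rab of forebrain, averaged 189 ± 7.43 RPKM across WT samples and 193 ± 4.69 RPKM across KI samples (SD, n = 2 here and below). Among its paralogs, *Rab3c* averaged 55.4 ± 1.80 and 50.5 ± 4.74 RPKM, *Rab3b* 13.2 ± 0.26 and 12.8 ± 0.79 RPKM, and *Rab3d* 3.89 ± 0.08 and 3.54 ± 0.06 RPKM in WT and KI. *Rab3c* and *Rab3d* were lower in both KI samples, whereas *Rab3a* and *Rab3b* overlapped. *Rab27b*, which acts in vesicle docking, averaged 3.52 ± 0.21 and 3.22 ± 0.53 RPKM, and *Rph3a*, encoding rabphilin, 103 ± 5.53 and 109.6 ± 10.05 RPKM. Both of these overlapped between the genotypes.

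*Rab39* (ENSMUSG00000055069, chr9:53684110-53706232, minus strand), a Rab of vesicle traffic, was the lowest member. It was at 0.477 and 0.496 RPKM in WT and 0.609 and 0.675 RPKM in KI, from 19, 13, 26 and 30 reads. Both KI samples were above both WT samples, but every Poisson interval overlapped every other, the WT upper limits being 0.744 and 0.848 RPKM and the KI lower limits 0.398 and 0.456 RPKM. The ratio of the means was 1.32. On the log2(RPKM + 1) scale, which understates changes of low genes, the log2 fold change was 0.14 ± 0.12 (SE; adjusted p = 0.750, limma), and by voom it was 0.39 ± 0.33 (SE; adjusted p = 0.713). A difference was not detectable at this depth.

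Among the 7 vesicle membrane genes, 4 were higher and 2 lower in both KI samples, beside 24% and 18.1% of all genes, and 1 overlapped. *Syngr1* (ENSMUSG00000022415, chr15:80091334-80119501, plus strand) encodes synaptogyrin 1, a tetraspan protein of the vesicle. It was at 78.3 and 81.2 RPKM in WT and 89.5 and 88.1 RPKM in KI. Both KI samples were higher, with a log2 fold change of 0.15 ± 0.05 (SE; 95% interval 0.03 to 0.27; adjusted p = 0.476, limma). *Syngr3*, its paralog, was at 51.7 and 51.3 RPKM in WT and 54.3 and 58.4 RPKM in KI, with KI again above WT in both samples and a log2 fold change of 0.13 ± 0.05 (SE; adjusted p = 0.544, limma), or 0.08 without KI replicate 2. As both were higher, the share of *Syngr1* in the pair was 60.8% ± 0.76 in WT and 61.2% ± 1.48 in KI (SD, n = 2) and overlapped.

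*Synpr* encodes synaptoporin, a relative of synaptophysin that is known from the mossy fibre terminals of dentate granule cells. Its level was 14.99 and 14.04 RPKM in WT and 9.91 and 13.1 RPKM in KI. Both KI samples were below both WT samples, KI replicate 1 by far the more. The log2 fold change was -0.32 ± 0.14 (SE; adjusted p = 0.543, limma), -0.14 without KI replicate 1 and -0.51 without KI replicate 2. Dentate gyrus markers were lower in the same samples, 4 of 4 (*Prox1*, *Dsp*, *C1ql2* and *Tdo2*) in both KI samples, as 18.1% of all genes were, and none was at 0. Their summed level was 71.2 to 73.0 RPKM in WT, 47.3 RPKM in KI replicate 1 and 56.8 RPKM in KI replicate 2. KI replicate 1 was thus lowest for the markers and for *Synpr*. The part of the dentate markers in the *Synpr* difference was not tested.

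**Figure D3:**
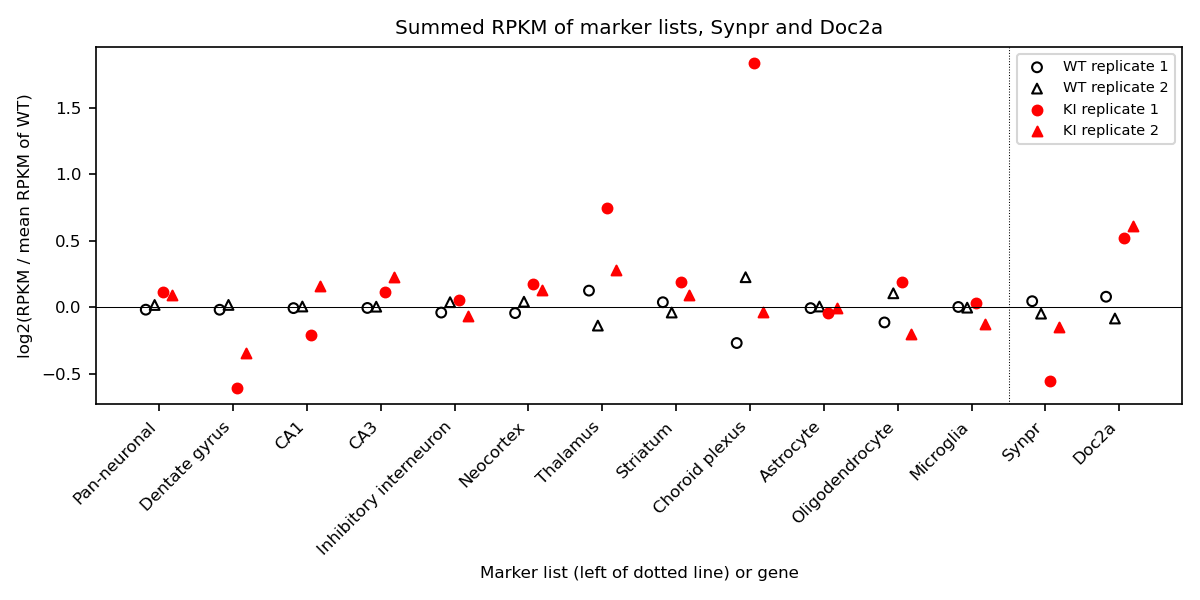
Summed RPKM of 12 marker lists, and RPKM of *Synpr* and *Doc2a*, as the log2 ratio of each sample to the WT mean. Open black symbols are WT and filled red symbols KI. The dentate gyrus sum and *Synpr* are lowest in KI replicate 1 and next lowest in KI replicate 2, whereas *Doc2a* is high in both, and the choroid plexus sum of KI replicate 1 (60.1 RPKM) stands apart from the 14.0 to 19.7 RPKM of the other samples.

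Markers of neighbouring brain regions differed as well. The neocortex list summed to 49.0 to 51.9 RPKM in WT and 55.3 to 57.0 RPKM in KI (4 of 6 genes higher in both KI samples). Thalamus markers summed to 15.8 to 19.0 and 21.1 to 29.2 RPKM (2 of 5 higher and 2 of 5 lower), and striatum markers to 38.6 to 40.8 and 42.4 to 45.3 RPKM (3 of 6 higher and 1 of 6 lower). No marker of these lists was at 0 in any sample. Within the hippocampus, the CA3 sum was 40.1 to 40.4 RPKM in WT and 43.5 to 47.1 RPKM in KI (1 of 3 higher), while the CA1 sum overlapped (1 of 3 higher). The sum of inhibitory interneuron markers was 709 to 749 RPKM in WT and 698 to 758 RPKM in KI and overlapped, with 3 of 8 genes higher in both KI samples (*Pvalb*, *Vip* and *Slc32a1*) and 1 of 8 lower (*Sst*). Over all genes, 24% were higher and 18.1% lower in this way. The part of these differences in the values of *Doc2a*, *Syngr1* and the other members higher in KI was not tested.

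Among the SV2 glycoproteins of the vesicle, *Sv2a*, the target of levetiracetam, averaged 81.8 ± 1.69 RPKM in WT and 84.0 ± 0.89 RPKM in KI, and *Sv2b* 79.6 ± 1.78 and 81.7 ± 0.71 RPKM. Both were higher in both KI samples by log2 fold changes of 0.04, and both intervals included 0. *Sv2c*, the scarce paralog, was at 3.26 and 3.59 RPKM in WT and 3.03 and 2.34 RPKM in KI. It was below WT in both KI samples, mostly in KI replicate 2, with a log2 fold change of -0.27 ± 0.13 (SE; adjusted p = 0.567, limma) and of -0.13 without that sample. *Syp*, encoding synaptophysin, averaged 239 ± 3.86 and 248 ± 14.3 RPKM and overlapped. It shares 875 exon bases with *Gm14703*, whose reads were not separated from its own.

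**Figure D4:**
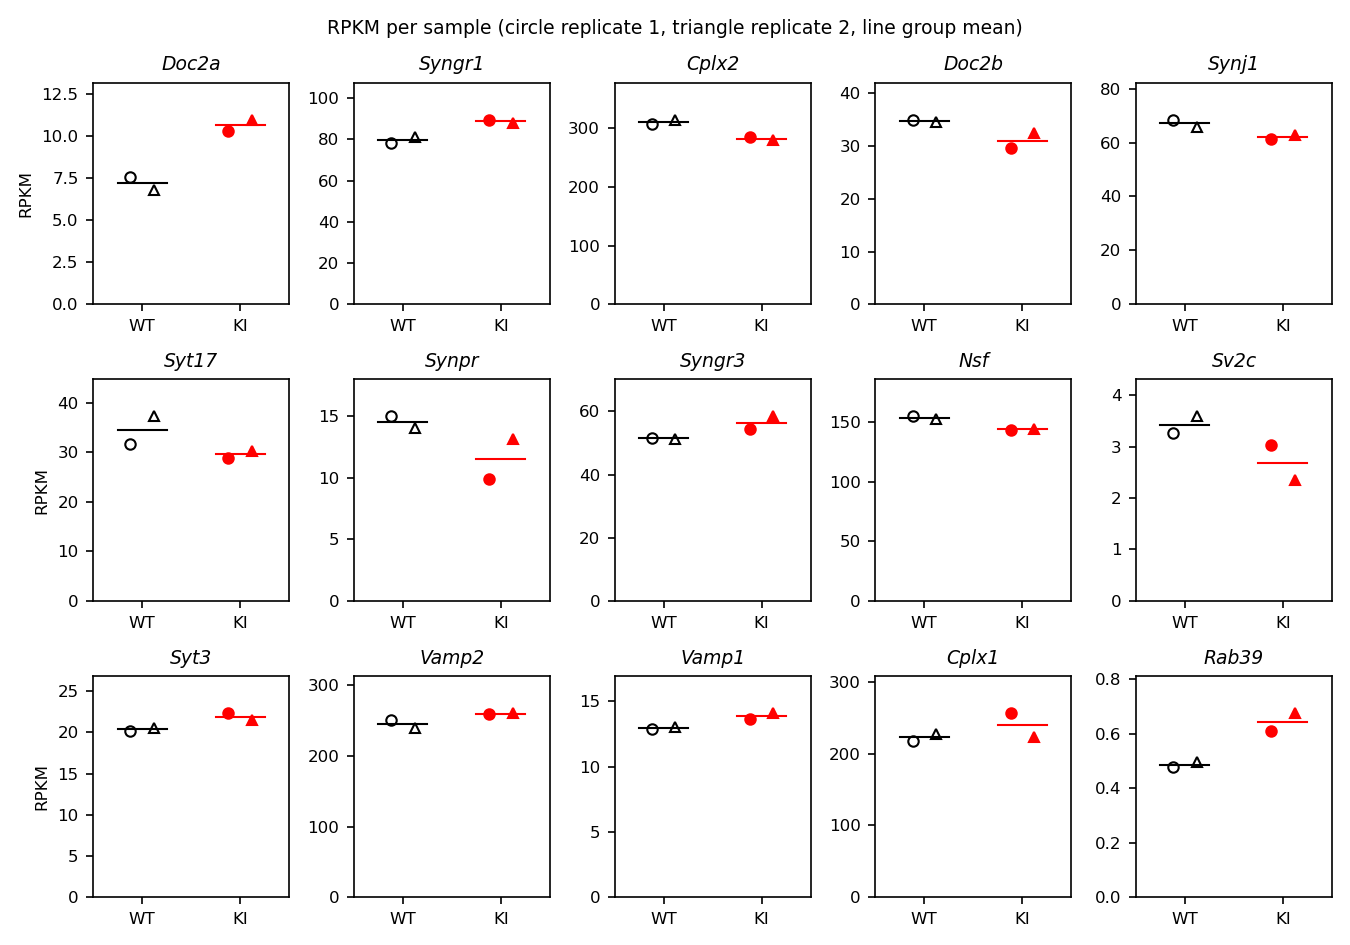
RPKM in each sample for 15 of the genes given in full, each on its own axis from 0. Circles are replicate 1, triangles replicate 2, open black WT, filled red KI, and lines are group means. The genotypes are apart in all panels but that of *Cplx1*, and the ratio of the means is largest for *Doc2a*, at 1.48. The panels show the 12 members of smallest unadjusted limma p and those assayed by qRT-PCR. Separation was thus largely built in by this choice, and of all 46 members 22 overlapped.

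Synaptic SNAREs form the fusion complex, with *Vamp1* and *Vamp2* on the vesicle and *Stx1a* and *Snap25* on the plasma membrane. All 4 log2 fold changes were above 0, between 0.04 and 0.09, beside a median of 0.01 over all genes tested. The share of all genes above 0 is not given here. All 4 were under 1.2-fold, as were 86.9% of all genes tested. *Vamp2*, the main vesicle SNARE of forebrain, was at 250.9 and 239 RPKM in WT and 259 and 261 RPKM in KI. KI was above WT in both samples, with a log2 fold change of 0.09 ± 0.05 (SE; adjusted p = 0.620, limma). That fold change was 0.05 without WT replicate 2 and 0.03 after quantile normalization. *Vamp1* (ENSMUSG00000030337, chr6:125215551-125245964, plus strand) was at 12.9 and 13.1 RPKM in WT and 13.6 and 14.1 RPKM in KI. It too was higher in both KI samples, by a log2 fold change of 0.09 ± 0.06 (SE; adjusted p = 0.653, limma). *Vamp1* was 5.03% ± 0.19 of the *Vamp1* and *Vamp2* sum in WT and 5.06% ± 0.10 in KI, which overlapped. *Snap25* averaged 303 ± 3.94 and 313 ± 12.5 RPKM and *Stx1a* 33.0 ± 2.48 and 34.8 ± 0.67 RPKM, with overlap in both.

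Complexins bind the assembled SNARE complex. The means of the abundant pair differed in opposite directions, but only *Cplx2* had groups that did not overlap. *Cplx2* was at 307 and 315 RPKM in WT and at 285 and 279.8 RPKM in KI. The KI values were the lower ones, with a log2 fold change of -0.14 ± 0.05 (SE; 95% interval -0.26 to -0.02; adjusted p = 0.490, limma). *Cplx1* (ENSMUSG00000033615, chr5:108518554-108550024, minus strand) was at 218 and 228 RPKM in WT and 257 and 223 RPKM in KI. KI replicate 1 was above both WT samples and KI replicate 2 lay between them, and the log2 fold change of 0.10 ± 0.08 (SE; adjusted p = 0.729, limma) was 0.00 without KI replicate 1. *Cplx1* made up 41.5% and 41.9% of complexin RPKM in WT and 47.3% and 44.1% in KI, and *Cplx2* 58.3% and 57.8% in WT and 52.5% and 55.3% in KI. Neither share overlapped between genotypes (exact two-sided permutation p = 0.333 each, adjusted p = 1). With *Cplx3* scarce, these shares nearly mirror each other and are not separate observations. Of the 14 family shares compared, 3 did not overlap, these included. *Cplx3*, a retinal and subplate complexin, was at 1.18 and 1.64 RPKM in WT and 1.203 and 3.24 RPKM in KI, from 45, 41, 49 and 137 reads. Only KI replicate 2 stood above the rest, and the log2 fold change of 0.35 ± 0.34 (SE; adjusted p = 0.781, limma) was -0.12 without that sample.

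Synapsins tether vesicles in the reserve pool, and their groups lay close together. *Syn1* averaged 211 ± 1.71 RPKM in WT and 207 ± 0.78 RPKM in KI, *Syn2* 114 ± 1.69 and 111 ± 2.95 RPKM, and *Syn3* 3.98 ± 0.01 and 4.27 ± 0.31 RPKM. *Syn1* was lower and *Syn3* higher in both KI samples, and no log2 fold change exceeded 0.08 in size. *Syn3* shares 1733 exon bases with *Timp3*. *Syn1* was 64.0% ± 0.14 of synapsin RPKM in WT and 64.2% ± 0.56 in KI, and *Syn2* 34.8% ± 0.16 and 34.5% ± 0.48, both with overlap.

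Genes of SNARE recycling and the chaperones were nearly level, with log2 fold changes between -0.09 and 0.02. *Nsf*, the ATPase that takes spent SNARE complexes apart, was at 154.7 and 153 RPKM in WT and 143.5 and 144 RPKM in KI. Neither KI value reached WT, with a log2 fold change of -0.09 ± 0.04 (SE; adjusted p = 0.556, limma). Its adaptors *Napa* and *Napb* (alpha- and beta-SNAP) averaged 60.3 ± 2.32 and 78.4 ± 1.70 RPKM in WT and 58.8 ± 1.04 and 77.0 ± 2.04 RPKM in KI. *Sncb*, beta-synuclein, averaged 126.7 ± 11.6 and 127.9 ± 2.52 RPKM, and *Dnajc5*, the cysteine string protein that chaperones SNAP-25, 48.8 ± 0.64 and 48.9 ± 0.22 RPKM. These 4 overlapped.

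All 3 endocytosis genes were lower in both KI samples, as were 18.1% of all genes tested. *Synj1*, the phosphatase that helps uncoat vesicles, was at 68.4 and 65.8 RPKM in WT and 61.2 and 62.7 RPKM in KI. No KI value reached a WT value, with a log2 fold change of -0.11 ± 0.05 (SE; adjusted p = 0.530, limma). *Dnm1*, encoding the dynamin that pinches vesicles off, averaged 316 ± 7.98 and 299 ± 6.33 RPKM, and *Amph*, its binding partner amphiphysin, 88.8 ± 0.86 and 86.0 ± 1.54 RPKM. Their log2 fold changes were -0.08 (adjusted p = 0.644, limma) and -0.04 (adjusted p = 0.781, limma). None of the 3 reached 1.2-fold, which 13.1% of all genes tested did. Endocytosis genes in the wider list of release genes described below did not share this order. Of those, *Sh3gl2* and the *Dnm1* paralogs *Dnm2* and *Dnm3* were higher in both KI samples, as were 24% of all genes. *Sh3gl3*, *Clta* and *Itsn1* were lower in both, and the rest overlapped.

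The 12 synaptotagmins stayed under 1.2-fold, as did 86.9% of all genes tested, with log2 fold changes between -0.21 and 0.11. In 3 both KI values were above both WT values and in 1 both were below, beside 24% and 18.1% of all genes. The other 8 overlapped. *Syt1*, the calcium sensor of fast release, averaged 175.7 ± 2.19 RPKM in WT and 175.6 ± 3.90 RPKM in KI. Its log2 fold change was 0.00 (adjusted p = 0.998, limma). *Syt7*, a sensor of slow release and facilitation, averaged 63.5 ± 2.89 and 61.5 ± 0.80 RPKM and overlapped. *Syt17* had the fold change of greatest size among them. It was at 31.7 and 37.2 RPKM in WT and 28.8 and 30.2 RPKM in KI. Both KI samples were lower, with a log2 fold change of -0.21 ± 0.09 (SE; adjusted p = 0.537, limma), -0.10 without WT replicate 2 and -0.32 without WT replicate 1. *Syt3*, a high-affinity calcium sensor, was at 20.1 and 20.6 RPKM in WT and 22.3 and 21.4 RPKM in KI. It was higher in both KI samples, with a log2 fold change of 0.10 ± 0.05 (SE; adjusted p = 0.592, limma).

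Of the remaining synaptotagmins, *Syt9* and *Syt12* were also higher in both KI samples. *Syt9*, like *Syt2* a fast sensor, averaged 1.23 ± 0.04 and 1.33 ± 0.02 RPKM, and *Syt12* 5.11 ± 0.02 and 5.62 ± 0.24 RPKM. *Syt12* shares 950 exon bases with *A930001C03Rik*, which was also higher in both KI samples (5.75 and 5.98 against 7.41 and 6.86 RPKM). The others overlapped. *Syt11*, which lacks calcium binding, averaged 142 ± 2.15 and 141 ± 3.89 RPKM, *Syt5* 69.3 ± 1.82 and 72.1 ± 9.34 RPKM, *Syt13* 52.6 ± 2.20 and 53.1 ± 2.15 RPKM, and *Syt4* 35.1 ± 1.56 and 36.2 ± 0.58 RPKM. At the low end, *Syt2*, which marks terminals of fast-spiking interneurons, averaged 5.58 ± 0.52 and 5.96 ± 0.22 RPKM and *Syt10* 1.44 ± 0.21 and 1.29 ± 0.02 RPKM. Of the summed RPKM of these 12 genes, *Syt1* was 29.0% in both genotypes and *Syt11* 23.4% in WT and 23.3% in KI.

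Other release genes were taken from a textbook list of 44, namely further SNAREs with their SM protein partners, vesicle membrane proteins, Rabs, chaperones, endocytic proteins and synaptotagmins. Of these, 40 were tested. *Syt8* and *Syt15* were under the minimum level, and *Vamp7* and *Cplx4* were not analysed here. None passed the threshold (smallest adjusted p = 0.507, limma), and 1 had an unadjusted p under 0.05, beside 9.62% of all genes. In 10 both KI values were above both WT values, beside 24% of all genes, and in 8 both were below, beside 18.1%, with a median log2 fold change of 0.01. *Sh3gl3*, an endophilin of vesicle endocytosis, was at 6.75 and 6.87 RPKM in WT and 6.02 and 5.61 RPKM in KI (log2 fold change -0.20; adjusted p = 0.507, limma). *Syngr2*, the synaptogyrin of non-neuronal cells, was at 2.77 and 3.19 RPKM in WT and 3.88 and 3.58 RPKM in KI (log2 fold change 0.25; adjusted p = 0.520, limma). *Sncg*, gamma-synuclein, was at 4.29 and 4.52 RPKM in WT and 3.999 and 2.98 RPKM in KI (log2 fold change -0.28; adjusted p = 0.574, limma). In each of these 3 the genotypes did not overlap. They are the 3 of smallest unadjusted p among the 40 tested, so separation was largely built in by this choice.

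**Figure D5:**
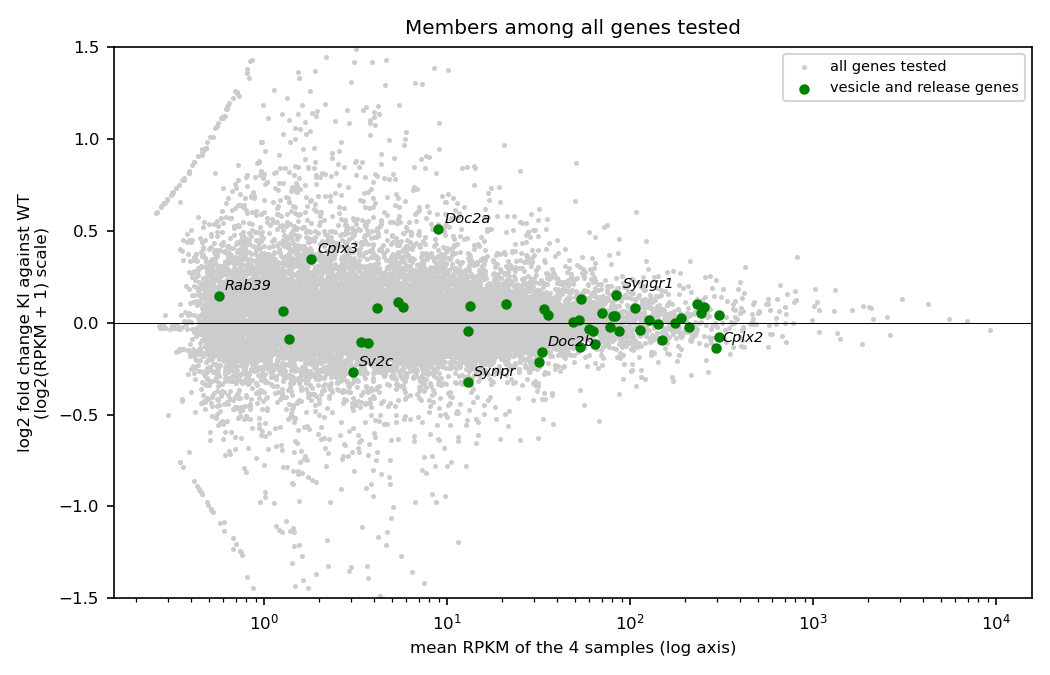
Log2 fold change, KI against WT, on the log2(RPKM + 1) scale against the mean RPKM of the 4 samples (log axis), for the 18436 genes tested (grey) and the 46 vesicle and release genes (green); 23 genes lie outside the axis at 1.5 in size. The green points follow the narrowing spread of the grey ones towards high levels, and *Doc2a* at 0.51 lies highest among them.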

How the data were processed

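Hippocampal poly(A) RNA of 2 WT and 2 KI samples was sequenced in read pairs. The authors aligned the reads to mm10 with GSNAP, kept unique, proper pairs and deposited RPKM per gene (Ensembl release 74), one table per sample without pooling. CASAVA is named in the submitters' processing notes, without a role. A gene absent from a table was set to 0.

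Groups and replicate numbers were taken from the labels. The limma package (3.58.1, R 4.3.3) was fitted to log2(RPKM + 1) with a mean-variance trend, over the 18436 genes that reached 0.5 RPKM in 2 or more samples, with Benjamini-Hochberg adjustment over all of them. Fold changes on this scale understate changes of low genes. Calls needed an adjusted p under 0.1 and 1.2-fold. A count model was not used as the main test because RPKM are not counts. The scripts were tested on simulated data, in which 40 of 192 calls by the limma fit were false at 3-fold changes. Members, roles and lists were chosen with earlier results of these data known. Values per sample and full statistics were given for the 12 members with the smallest unadjusted p, the 4 measured by qRT-PCR, and any past the threshold or at 0. *Cplx3* was added after its values were seen. Of the other release genes, the 3 with the smallest p were named.

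RPKM steps gave whole reads, used for Poisson intervals, a minimum of 10 reads and the added voom fit. All values of the 26328 genes came out whole, within 1e-05, with gene lengths fitted to make them so. The scaling totals were 13414957 and 8827967 (WT) and 14381252 and 14949756 (KI), while reads summed over genes were 16145065 and 10634776 (WT) and 17284603 and 17985340 (KI). Why these sums exceed the scaling totals was not established. Lengths equalled GENCODE M21 (GRCm38) for 31 of 46 members. Exon positions, overlaps and primer products came from M21. PCR duplicates were not told apart, so intervals cover counting error only. Python 3.11.15 with pandas 2.3.3, numpy 2.4.6, scipy 1.17.1 and matplotlib 3.10.9 served for the rest. Alternatives were another pseudocount, filters, scalings, thresholds, the replicate block and leaving out each sample.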

Additional observations from a re-analysis of the deposited data

How the results depend on the processing

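With 2 samples per genotype only large changes could pass, and calls depended on the model of the spread. Over all genes, limma called 0 genes, 1 when 10 reads were required in each sample, 20 without the mean-variance trend and 0 with the replicate block. The block together with 10 reads, added after seeing the data, called 51, and the added voom fit 188. Leaving out 1 sample gave 0 calls by limma and 1 to 863 by voom, where only 1 residual degree of freedom is left and a lone sample is assumed to vary like the other genotype. Of the members, voom called 1 and, with 1 sample left out, 0 to 3, and of the other release genes 0 to 1. Members above WT numbered 7 and below 17 after quantile normalization, and 15 to 21 and 13 to 21 with 1 sample left out. With a sample left out, fewer values have to separate, so such counts can only rise. Shares over all genes in these settings are not given here. The member median was -0.0018 after quantile normalization and -0.00766 to 0.0147 with 1 sample left out. Same-numbered samples did not deviate together (Pearson r = -0.02 across 18436 genes and -0.06 across 16063 genes that passed the 10-read minimum), so the numbers were not taken as pairs. The block called 0 members.

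Of 287 alternative values for the 16 members with values in every sample and statistics, 2 changed sign, both of *Cplx3* without KI replicate 2 (-0.12 by limma and -0.17 by voom). Its values with 1 sample left out ran from -0.17 to 1.25. The count of sign changes says little about stability. Filters, the trend setting and the replicate block leave a fold change as it is. All of the 16 but *Cplx1* and *Cplx3* had groups that did not overlap. For those, leaving out 1 sample could not turn the sign in the limma fit. Of all 46 members, 18 turned sign when some 1 sample was left out. Shares of small difference did, with 1 sample left out (KI minus WT, percentage points): *Vamp1* -0.109 to 0.166, *Syn1* -0.213 to 0.583, *Syn2* -0.640 to 0.0433, *Sv2a* -0.421 to 0.973, *Sv2b* -0.586 to 1.00, *Syngr1* -0.624 to 1.47, *Napa* -1.23 to 0.863, *Syt1* -0.575 to 0.622 and *Syt11* -0.733 to 0.575. The cause was not tested.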
